A study of Mus musculus with 2 samples.

Results

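Plasmacytoid dendritic cells (pDCs) were examined in scRNA-seq data from CD45.2+ tumor-infiltrating immune cells (TIIs) of mice with subcutaneous B16-OVA tumors, a melanoma line that carries the model antigen ovalbumin. The hosts were adult male wild-type C57BL/6J mice. A control library came from mice labelled as given PBS, and a creatine library from mice given 10.5 mg creatine daily by intraperitoneal injection, both with tumors taken at day 14. Per the labels, 4 tumors were pooled for each library before the sort of DAPI-CD45.2+ cells, and 10000 cells were loaded. There was thus 1 library per group with no replicate, so no test was made, and all intervals are exact 95% intervals of counting error only. The protocol entry of the control library names the creatine injection although its treatment label is PBS, and the study's methods name another harvest day in a further passage. The number of animals combined per library also differs between passages of the study.

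pDCs are rare dendritic cells (DCs) that sense viral and self nucleic acids through endosomal Toll-like receptors (TLRs), and they are known as the main early source of type I interferon in virus infection. Their identity is held by the E protein TCF4 (E2-2), together with factors such as SPIB, RUNX2 and BCL11A, and it is opposed by ID2, which promotes conventional DCs (cDCs). cDCs take up, process and present antigen to T cells, and in tumors they stand beside pDCs as a separate lineage.

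pDCs were selected on measured UMIs, so the genes used are no finding. A cell was called a pDC when it held at most 25% mitochondrial UMIs, at least 3 *Siglech* UMIs, at least 1 UMI of *Ccr9*, *Ly6d*, *Klk1* or *Cox6a2*, at most 1 UMI of the T cell genes *Cd3d*, *Cd3e* and *Cd3g*, and fewer than 10 UMIs of the macrophage genes *C1qa*, *C1qb* and *C1qc*. This gave 69 of 13470 cells (0.512%, 0.399 to 0.648). The control library held 42 pDCs of 7241 cells (0.580%, 0.418 to 0.783), and the creatine library 27 of 6229 (0.433%, 0.286 to 0.630). These intervals overlapped. Summed over these cells, control held 301621 UMIs and creatine 232031, or 7217 and 8870 in the median cell. Of 46 control and 30 creatine cells with 3 or more *Siglech* UMIs, the other terms removed 4 and 3. The gate held 90.0% of the *Siglech* UMIs of the control library and 92.4% of those of the creatine library. No pDC barcode occurred in the other library, although 30 barcodes were shared over all cells.

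As cDCs, 251 cells were taken by gates on *Xcr1* and *Clec9a* (79 cDC1s), on *Cd209a*, *Ffar2* and *Mgl2* (138 cDC2s), and on *Ccr7* and *Fscn1* (34 *Ccr7*+ DCs). Each cDC gate also asked for at least 1 UMI among *Flt3*, *Zbtb46* and, for some, *Itgax* or *H2-Aa*, so the levels of these genes in cDCs were in part set by the choice of cells. UMIs were summed over the cells of a population and divided by the population total on the usual CPM scale, and every ratio below is a log2 ratio of such sums. A gene with 0 UMIs in a population was given the floor of 3 UMIs there, so its ratio is a bound. A gene entered the list counts when it reached 18.7 CPM, the level of 10 pDC UMIs, in pDCs or cDCs. Of 6816 such genes, 1051 were at least 2-fold higher in pDCs (15.4%) and 973 at least 2-fold lower (14.3%), with a median log2 ratio of 0.08. Since the cells were gated on expression, all contrasts of pDCs with cDCs are descriptions. A gene that passed only because it was high in one population had to differ, so the counts are not independent evidence.

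The genes of the gate were as follows, as values that chose the cells. *Siglech*, a sialic acid-binding receptor of pDCs, was at 2642 CPM in control and 2375 CPM in creatine pDCs, and at 2.70 CPM in cDCs. *Ccr9*, a homing receptor for CCL25, was at 2182 and 1336 CPM, against 9.46 in cDCs. *Ly6d*, a GPI-anchored surface protein, was at 1532 and 1065 CPM, with 1 UMI in cDCs. *Klk1*, a tissue kallikrein, was at 782 and 797 CPM, also with 1 UMI in cDCs. *Cox6a2*, the heart and muscle form of a cytochrome c oxidase subunit, was at 1131 and 901 CPM with 0 UMIs in cDCs. Single cells differed widely in these genes. *Siglech* ran from 3 to 46 UMIs with a median of 19, and *Ccr9* from 1 to 47 with a median of 11. *Ly6d* was found in 46 cells, *Cox6a2* in 50 and *Klk1* in 36, the last with up to 75 UMIs in 1 creatine cell. At the edge of the gate, the 5 control and 5 creatine cells with 3 to 5 *Siglech* UMIs had median *Tcf4* UMIs of 14 and 16, and medians of 0 for both *Ly6d* and *Cox6a2*. Of the 3 cells with exactly 2 *Siglech* UMIs that met all other terms, the 2 in control had a median of 16.5 *Tcf4* UMIs and 0 *Irf8* UMIs, and the creatine cell held 28 and 20.

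**Figure D1:**
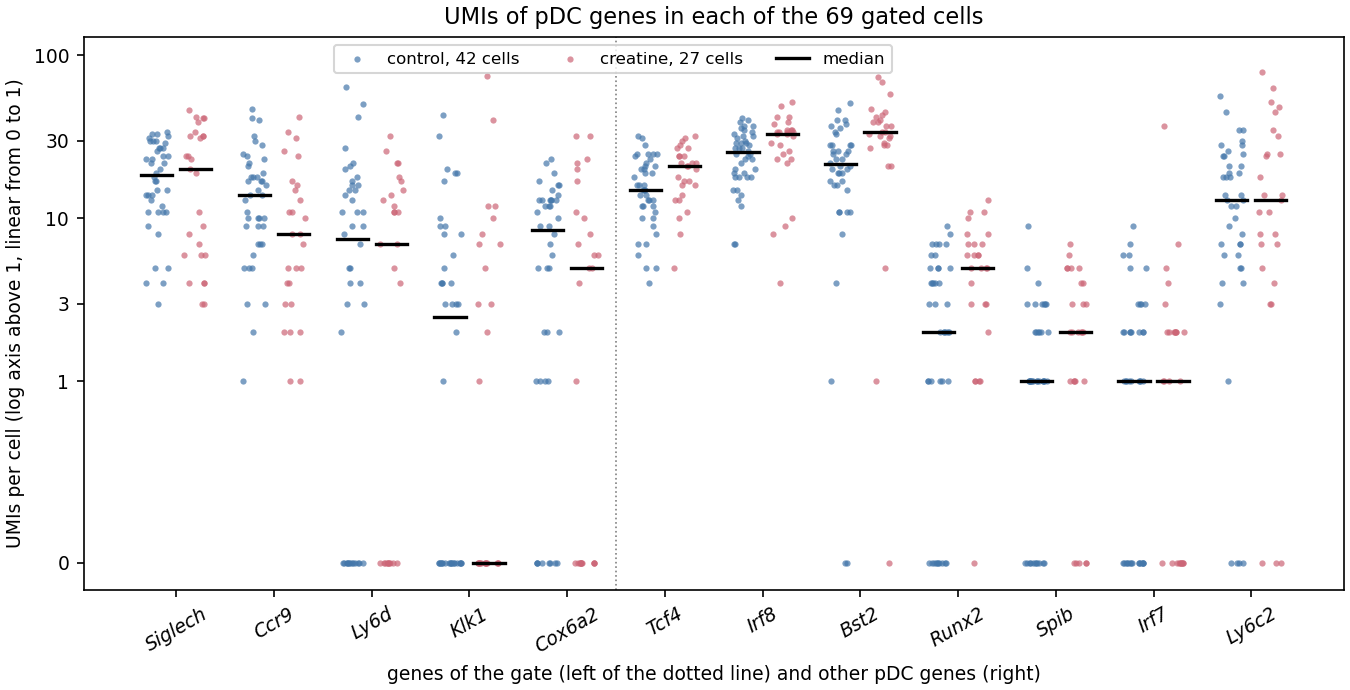
UMIs of 12 genes (x axis) in each of the 69 pDCs (y axis, logarithmic above 1), with control cells in blue, creatine cells in red and black bars at the medians. *Siglech* was above 0 in every cell by the gate, *Ccr9*, which the gate did not require by itself, and *Tcf4* and *Irf8*, which it did not use, were also above 0 in every cell, and *Ly6d*, *Klk1* and *Cox6a2* had cells at 0 beside cells of 10 or more UMIs.

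Of the 5 gate genes 3 lie on chromosome 7 (GRCm38, GENCODE M21). *Siglech* spans chr7:55768178-55778925, *Klk1* chr7:44225360-44229618 and *Cox6a2* chr7:128205435-128206387, while *Ccr9* spans chr9:123678439-123784330 and *Ly6d* chr15:74762056-74763620. TCF4 and other E proteins bind the E-box, CANNTG, a motif that reads the same on both strands. To show what the sequence before these coexpressed genes holds, the 150 bases upstream of the RefSeq start (GRCm38.p6) are given for the 3 gate genes with an entry, 5′ to 3′ on the plus strand, with each CANNTG in capitals. They are *Siglech* (chr7:55768034-55768183), *Ccr9* (chr9:123767061-123767210, within the longer GENCODE gene) and *Klk1* (chr7:44225210-44225359).
Siglech: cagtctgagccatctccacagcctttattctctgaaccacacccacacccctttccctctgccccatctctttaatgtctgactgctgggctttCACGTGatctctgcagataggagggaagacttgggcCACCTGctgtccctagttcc
Ccr9: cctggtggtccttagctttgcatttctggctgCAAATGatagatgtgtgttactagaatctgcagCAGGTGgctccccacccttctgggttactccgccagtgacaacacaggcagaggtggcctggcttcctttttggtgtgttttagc
Klk1: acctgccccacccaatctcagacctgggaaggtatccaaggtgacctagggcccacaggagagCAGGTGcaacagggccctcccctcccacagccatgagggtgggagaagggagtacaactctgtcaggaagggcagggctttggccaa
*Siglech* held an E-box at -56 and at -20 from the start, *Ccr9* at -118 and -85, and *Klk1* at -87. An E-box occurred in 47.7% of all 32851 RefSeq promoters in a window of this length, and the narrower CAGNTG or its reverse complement CANCTG, which each of the 3 held once, in 30.1%. A match is a stretch of letters, and binding was not measured.

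Other genes known from pDCs were then examined as a description, since many of them passed the filter through pDCs alone. Of a list of 36 such genes, 34 passed the filter, 32 were at least 2-fold higher in pDCs than in cDCs and 1 was lower, with a median log2 ratio of 4.59. *Bst2*, a surface antigen of pDCs and a retention factor for viruses, was at 3116 CPM in control pDCs, 3991 in creatine pDCs and 288 in cDCs, a log2 ratio of 3.60 (3.49 to 3.71). *Atp1b1*, a sodium pump subunit, stood at 650 and 672 CPM against 1.62 in cDCs (8.67, 7.53 to 10.1). *Mctp2* (8.61), *Paqr5* (7.20) and *Gm21762* (138 UMIs against 0, at least 319-fold) were also high. The inhibitory receptor *Lair1* was at 1313 and 806 CPM (4.63), *Cd300c* at 308 and 263 CPM (5.97) and the Fc receptor-like gene *Fcrla* at 504 and 319 CPM (5.53). *Lag3*, an inhibitory receptor that pDCs share with exhausted T cells, was at 169 and 155 CPM and 4.28 above cDCs. *Cd300c2* was the gene in the other direction, with a log2 ratio of -1.59. With each cell thinned to 2000 UMIs, *Bst2* was found in 97.0% of 67 pDCs and in 13.3% of NK cells (median 7699 and 5002 UMIs per cell before thinning, and 95.7% and 30.7% unthinned). NK cells served as the measure of free RNA, but whether they express *Bst2* themselves was not tested. *Bst2* was found in 26.9% of cDC1s, 43.5% of cDC2s and 26.5% of *Ccr7*+ DCs after thinning, and in 93.7%, 96.4% and 76.5% before. *Pacsin1*, a membrane-bending adaptor, was found in 35.8% of pDCs and 0.228% of NK cells after thinning, and in 71.0% and 0.495% before.

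The transcription factors of pDCs were high, and those of cDCs low. Among 20 pDC factors, 18 passed the filter, 13 were at least 2-fold higher and 0 lower, with a median log2 ratio of 1.71. *Tcf4* was found in all 69 pDCs with 4 to 32 UMIs (median 17), at 2241 CPM in control and 2297 CPM in creatine, which was 19.5-fold the level in cDCs (4.29, 4.13 to 4.45). *Spib* was at 212 and 289 CPM (4.87, 4.30 to 5.49), *Runx2* at 411 and 625 CPM (4.74, 4.35 to 5.14), and *Bcl11a* at 829 and 858 CPM (3.14, 2.93 to 3.34). *Spib* was at 0 UMIs in cDC1s and at 53.0 CPM in *Ccr7*+ DCs, so the cDC subsets differed in it. *Irf8*, which both pDCs and cDC1s require, was at 3494 and 3482 CPM in pDCs, 1983 in cDC1s and 313 in cDC2s. *Irf7*, the master factor of type I interferon genes, differed less from cDCs (0.76, 0.49 to 1.01) and ran from 0 to 37 UMIs per cell. Of 15 cDC factors, all passed the filter, 10 were at least 2-fold lower in pDCs and 0 higher, with a median of -1.52. *Id2*, the antagonist of E proteins, was at 49.7 and 86.2 CPM in pDCs against 1072 in cDCs (-4.03), and *Batf3*, a factor of cDC1s, had 2 UMIs (-4.96, -8.01 to -3.10). *Zbtb46*, a factor of committed cDCs that their gates used, was at 16.9 CPM (-1.52). *Klf4* was at 144 CPM in pDCs and 110 in cDCs (0.39), and its UMIs were unevenly spread over pDCs, as described below.

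**Figure D2:**
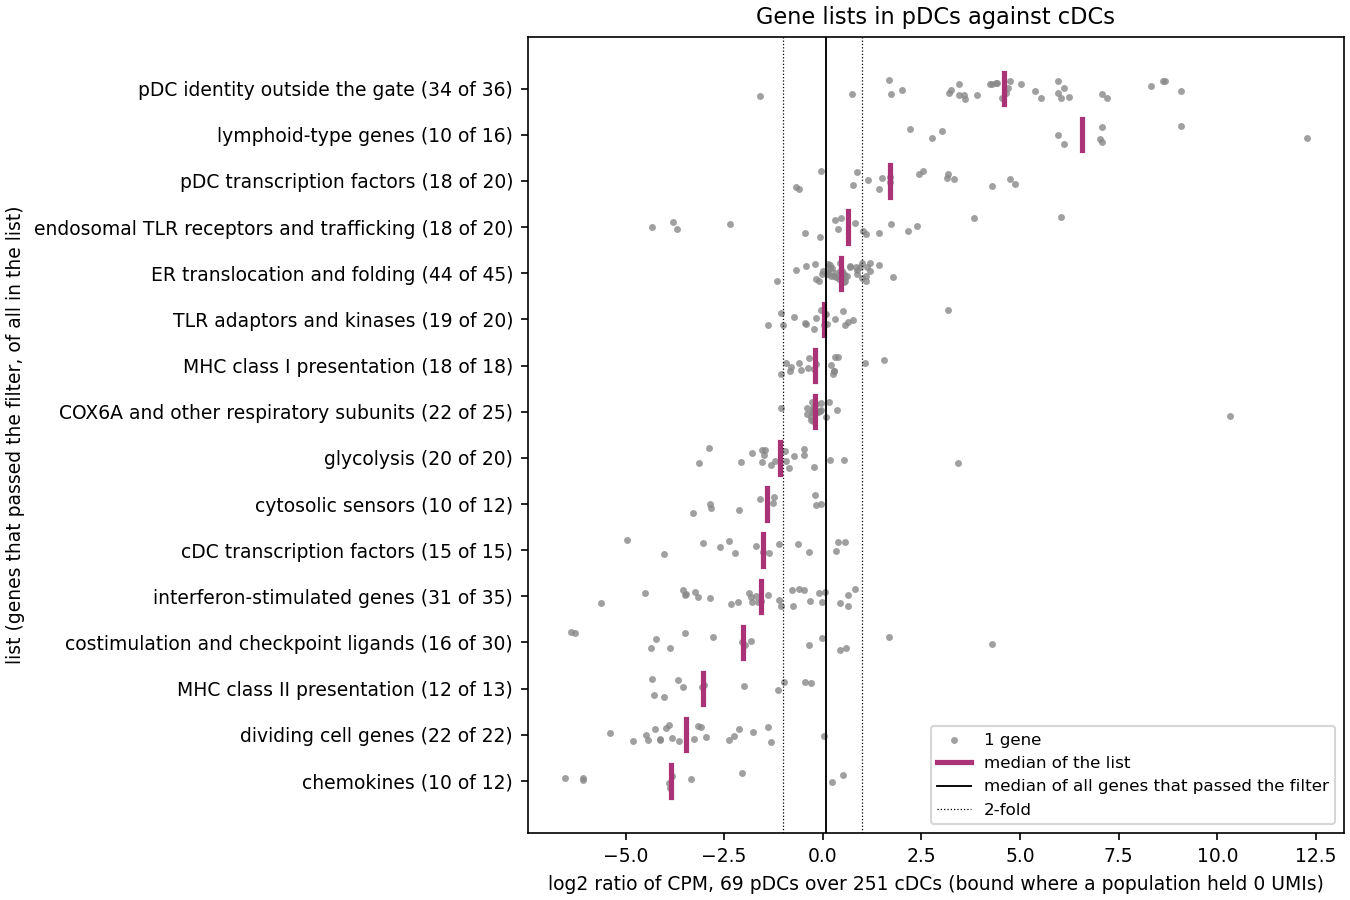
Log2 ratio of CPM, pDCs over cDCs, for each gene (grey points) of 16 lists, with the list median in purple, the median of all genes that passed the filter as a solid line and 2-fold as dotted lines. Lists of pDC identity and lymphoid-type genes lay to the right, and lists of MHC class II, chemokines and dividing cells to the left.

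Genes for nucleic acid sensing were split by the compartment of the sensor. Of 20 genes for endosomal TLRs and their trafficking, 18 passed, with 8 at least 2-fold higher in pDCs, 4 lower and a median of 0.65. *Tlr7*, the receptor for single-stranded RNA, was at 133 CPM in control and 86.2 CPM in creatine pDCs and 14.3-fold above cDCs (3.84, 3.18 to 4.53). After thinning it was found in 19.4% of pDCs and 0.284% of NK cells (50.7% and 1.04% unthinned). *Tlr9*, the receptor for CpG DNA, had 7 UMIs in pDCs and 4 in cDCs, or 13.1 and 1.08 CPM, and did not pass the filter. *Tlr12*, which pairs with TLR11 in the recognition of profilin, was at 28.1 CPM (2.38), whereas *Tlr11* had 0 UMIs against 107 in cDCs (-2.36 as a bound). *Tlr3*, the receptor for double-stranded RNA, had 0 UMIs against 291 in cDCs, at least 14.0-fold lower. Of the trafficking and processing genes, the lysosomal protease *Ctsl* was at 1528 and 1431 CPM (6.03), *Ctsb* at 1230 and 1526 CPM (2.15), and the nuclease *Pld4* at 1081 and 1013 CPM (1.72), while the chaperone *Unc93b1* was nearer to cDCs (0.82). Of the TLR adaptors and kinases, 19 of 20 passed, 1 was higher, 3 lower and the median was 0.02. The 1 higher gene was *Ptprs*, a receptor phosphatase that restrains pDC activation (3.18, 2.81 to 3.54). *Myd88* was lower in pDCs (-1.05), as was *Irf5* (-1.01). Among cytosolic sensors 10 of 12 genes passed, 7 were at least 2-fold lower and 0 higher. *Ddx58* (RIG-I) was at -3.28, *Zbp1* at -2.85 and *Mb21d1* (cGAS) at -2.12, whereas *Tmem173* (STING) was at -0.05.

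No interferon transcript was found. Each of the 20 type I and III interferon genes examined, *Ifnb1* and the *Ifna* genes among them, had 0 UMIs in pDCs and in cDCs. A count of 0 in 533652 pDC UMIs allows up to 5.62 CPM for each gene. The receptors were present, with *Ifnar1* at 192 and 220 CPM (1.62), *Ifnar2* at 216 and 198 CPM (1.55) and *Il10rb* at 123 and 138 CPM (1.56). *Ifngr1*, for interferon-γ, was 4.03-fold lower than in cDCs (-2.01). Of 35 interferon-stimulated genes, 31 passed, 19 were at least 2-fold lower in pDCs and 0 higher, with a median of -1.58. *Ifit1* had 1 UMI in pDCs (-5.62, -10.9 to -3.14), *Isg15* was at 56.4 and 147 CPM against 307 in cDCs (-1.68), and *Ifi27l2a* was level (731 and 742 CPM). The same held for genes induced by interferon-γ, with 11 of 18 at least 2-fold lower. *Cxcl9* was at 9.95 and 4.31 CPM in pDCs and 503 in cDCs (-6.07), and *Cxcl10* at 26.5 and 4.31 CPM against 254 (-3.91). *Mx2* and *Cxcl11* were not analysed here. pDCs are also known for a large secretory apparatus. Of 45 genes for protein entry into the endoplasmic reticulum and folding there, 44 passed, with 8 at least 2-fold higher, a share near the 15.4% over all genes, 1 lower and a median of 0.46. *Xbp1* was at 451 and 392 CPM (1.41), *Ssr1* at 219 and 220 CPM (1.19) and *Spcs2* at 385 and 422 CPM (1.18), and *Sdf2l1* was lower (-1.16).

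Most genes of MHC class II presentation and of costimulation that passed the filter were below cDCs. Of 13 genes for MHC class II presentation, 12 passed, 9 were at least 2-fold lower in pDCs and 0 higher, with a median of -3.03. *H2-Aa* was at 607 and 552 CPM in pDCs against 6766 in cDCs (-3.54), *Cd74*, the invariant chain, at 1847 and 1478 CPM against 13531 (-3.00), and *Ciita*, the coactivator of these genes, at 29.8 and 38.8 CPM (-3.66). Genes of MHC class I did not follow, with 18 of 18 passed, 2 higher, 1 lower and a median of -0.20. The 2 higher ones were *H2-Q7* (1.55) and *H2-T23* (1.06), although H2 genes are near-identical in part and their reads may be shared. Of 30 costimulation and checkpoint genes, 16 passed, with 10 lower and 2 higher. *Cd83* had 1 UMI, *Cd274* (PD-L1) 2 and *Cd86* 4 in all pDCs, against 537, 284 and 406 in cDCs. The 2 higher genes were *Lag3*, above, and *Cd200*, a ligand that restrains myeloid cells (1.68). Chemokines were low as well, with 8 of the 10 that passed at least 2-fold lower, and *Cxcl16* had 1 UMI against 645. Of receptors for homing, the lymphocyte sphingosine receptor *S1pr4* was at 82.9 and 99.1 CPM (3.38). *Ccr7* and *Xcr1* had 0 UMIs in pDCs. *Flt3*, the receptor on which all DCs depend, was at 119 and 138 CPM, and at 132 in cDCs, which were gated on it.

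Genes usual in lymphocytes were also expressed. Of 16 lymphoid-type genes, 10 passed, and all 10 were at least 2-fold higher than in cDCs, with a median of 6.57. The list includes *Ly6d* of the gate, and most of its other members were near 0 in cDCs and passed through pDCs alone, so this count was largely fixed by the filter. *Dntt*, which adds nucleotides at V(D)J joints, was at 129 and 81.9 CPM with 0 UMIs in cDCs, at least 134-fold higher. The light chain constant gene *Iglc3* was at 487 and 375 CPM, also with 0 UMIs in cDCs (at least 541-fold), *Igkc* at 133 and 69.0 CPM (7.02) and *Ighm* at 1015 and 832 CPM (2.77). *Ptcra*, the pre-TCR alpha chain, had 27 UMIs (5.96, 4.26 to 8.33) in 4 pDCs, of which 1 held 13 and another 12, and the adaptor *Blnk* was at 172 and 207 CPM (6.11). The recombinase gene *Rag1* had 1 UMI and *Rag2* 0. The B cell markers *Cd79a*, *Ms4a1* and *Pax5* were at 0 in every pDC, while *Cd79b*, a signaling chain of the B cell receptor, had 24 UMIs in 20 of 69 pDCs (2.73, 1.86 to 3.60) and *Ighd* 6 UMIs. Of the 10 B and plasma cell genes examined 4 were found in each library, at 169 CPM summed in control and 254 CPM in creatine. *Mzb1*, a chaperone of the endoplasmic reticulum, made up most of this sum (37 and 41 UMIs) and had 0 UMIs in cDCs, and *Jchain* was at 0.

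Some single genes best known from muscle were high in pDCs. They were chosen after their values were seen, form no list with a count or test, and other muscle forms did not follow. *Atp2a1*, the fast muscle SERCA calcium pump, led the genes outside all lists when ranked by counting interval. It was at 179 CPM in control and 198 CPM in creatine pDCs, with 0 UMIs in cDCs (at least 231-fold). It was found in 47 of 69 pDCs. Its relatives did not differ as much, since *Atp2a2* was at 56.2 CPM in pDCs and 59.8 in cDCs, and *Atp2a3* at 67.5 and 26.8. *Pgam2*, muscle phosphoglycerate mutase, had 35 UMIs in 17 pDCs and 0 in cDCs and in 1820 NK cells (at least 80.9-fold above cDCs), whereas the common form *Pgam1* was 3.46-fold lower in pDCs than in cDCs. *Cox6a2* has already been named as part of the gate, and its common form *Cox6a1* was at 242 CPM in pDCs and 293 in cDCs (-0.28, -0.55 to -0.01). *Sh3bgr*, which is abundant in heart and skeletal muscle, had 62 UMIs in 32 pDCs and 1 in cDCs (8.75, 6.22 to 14.1), and the heart form of lactate dehydrogenase, *Ldhb*, had 49 and 7 (5.60, 4.45 to 6.99). The muscle enolase *Eno3* was not among them, with 5 UMIs in pDCs and a log2 ratio of -1.21 (-2.87 to 0.08), and *Ckm*, muscle creatine kinase, had 0.

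**Figure D3:**
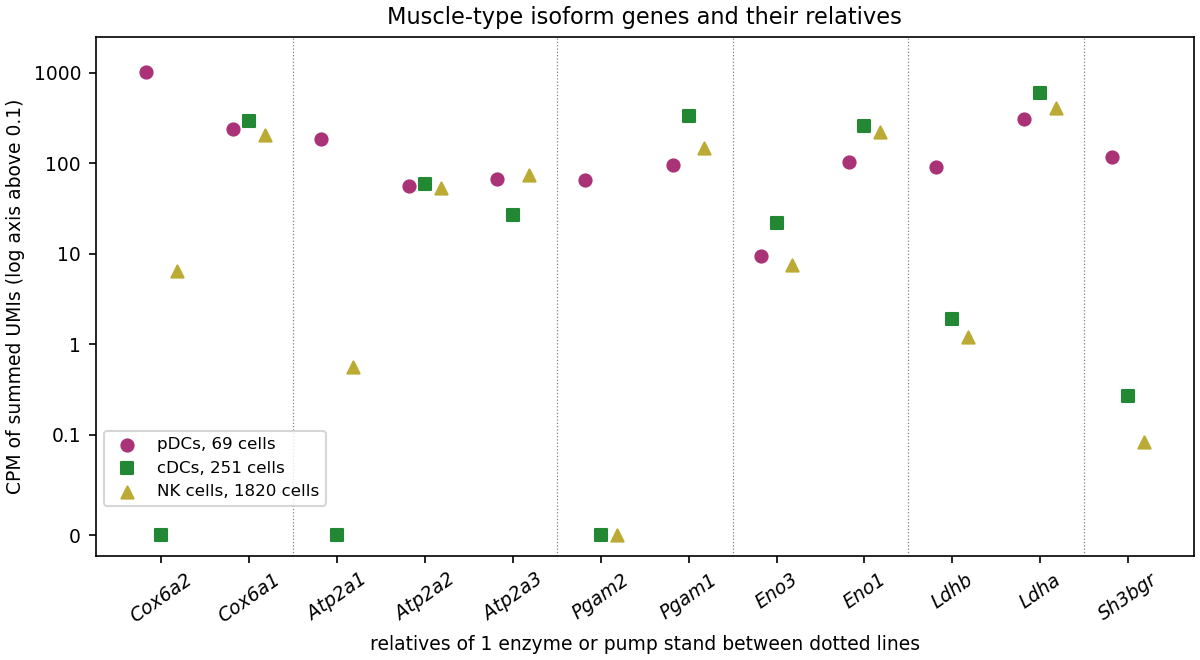
CPM of summed UMIs (y axis, logarithmic above 0.1) in pDCs (circles), cDCs (squares) and NK cells (triangles) for muscle-type genes and their relatives, with relatives of 1 enzyme or pump between dotted lines. *Cox6a2*, *Atp2a1*, *Pgam2*, *Ldhb* and *Sh3bgr* were above cDCs and NK cells, at 1031, 187, 65.6, 91.8 and 116 CPM, while *Eno3* was lower in pDCs than in cDCs.

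Other genes of energy metabolism were counted by list. Of 25 respiratory subunits, 22 passed, and outside *Cox6a2* 0 were at least 2-fold higher and 1 lower (*Cycs*, -1.06), with a list median of -0.20. Of 20 glycolysis genes all passed, 10 were at least 2-fold lower and 1 higher, with a median of -1.08. *Hk2* was at 23.2 and 60.3 CPM (-2.09) and the lactate exporter *Slc16a3* had 3 UMIs (-3.13, -5.42 to -1.56). The 1 higher gene was the glucose transporter *Slc2a3*, at 43.1 and 64.6 CPM (3.43). Of 7 genes for creatine transport, synthesis and kinases, 2 passed and both were lower in pDCs. *Ckb*, brain-type creatine kinase, was at 46.4 and 34.5 CPM against 470 in cDCs (-3.51, -4.19 to -2.91), and its UMIs were unevenly spread over pDCs, as described below. *Gatm*, for the initial step of creatine synthesis, had 1 UMI against 341. The creatine transporter *Slc6a8* had 0 UMIs in pDCs and 5 in cDCs.

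Further genes were named by rank among those at least 2-fold apart in each library alone, which held for 743 of the 1051 higher and 628 of the 973 lower genes. Above cDCs stood *Pir*, an iron-binding nuclear protein (52 UMIs against 0), *Hs3st1*, a heparan sulfate sulfotransferase (47 against 0), *Ccdc162* (46 against 1), the coreceptor *Cd4* (58 against 2), *Cmah*, the hydroxylase that makes N-glycolylneuraminic acid (76 against 4), *Sema4b* (85 against 5), protein kinase C alpha *Prkca* (72 against 4), the transporter *Slco4a1* (48 against 2) and VE-cadherin *Cdh5* (47 against 2). Below cDCs stood *Ifitm1* (3 against 3169), *Fgl2* (5 against 2177), *Olfm1* (3 against 1279), *Tgfbi* (3 against 1148), *Ifitm3* (68 against 9231), *St3gal5* (0 against 343), and *Bcl2a1b* (4 against 1240) and *Bcl2a1a* (0 against 384), of which the last pair are near-identical. *Ifitm3*, a membrane protein that blocks virus entry, was at 106 and 155 CPM in pDCs against 2496 in cDCs. Genes of dividing cells were seldom found in pDCs. At least 2 of *Mki67*, *Top2a*, *Birc5* and *Ccna2* were found in 1 of 42 control and 0 of 27 creatine pDCs, against 29 of 53 and 8 of 26 cDC1s, 10 of 76 and 2 of 62 cDC2s, and 1 of 26 and 2 of 8 *Ccr7*+ DCs. The cells were not thinned for these counts, and the median cDC1 held 18091 UMIs against 7699 in pDCs. Of 22 genes of dividing cells, 21 were at least 2-fold lower than in cDCs, with a median of -3.46 (-3.15 in control and -1.97 in creatine alone).

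Genes of the cDC subsets and of other families completed the picture. Of 12 cDC1 markers 11 were at least 2-fold lower in pDCs (median -3.20), of 11 cDC2 markers that passed 8 were lower and 1 higher (-2.28), and of 10 *Ccr7*+ DC markers 9 were lower (-3.42), but these lists hold genes of the cDC gates. In control alone these medians were -2.93, -1.79 and -2.89, and in creatine alone -1.96, -0.90 and -2.18. Of 12 genes shared by DCs 6 were lower and 1 higher (-1.14), and of 8 transitional DC genes that passed 6 were lower (-1.42). Of 6 genes that the study used for cDC activation, 4 were lower (-3.35, with -1.91 in control and -4.82 in creatine alone). Of 4 surface TLR genes that passed, 2 were lower and 1 higher, and of 17 chemokine and homing receptors 5 were lower and 5 higher (-0.55). Among 13 Siglecs and other inhibitory receptors, 6 were higher and 3 lower (0.97), and among 6 genes of the Ly6 family 3 were higher and 1 lower. The higher genes of these last 3 lists include *Ccr9*, *Siglech* and *Ly6d* of the gate. Only 2 of 11 kallikreins passed, *Klk1* and *Klk1b27*, the latter at 259 and 138 CPM with 1 UMI in cDCs (9.57). Of 6 cytotoxic genes that passed 4 were higher and 2 lower. Without the 2 pDCs rich in NK genes described below, *Gzma* turned from 2.55 to -0.35 (-2.04 to 0.98) and *Nkg7* from 1.05 to -0.43 (-1.80 to 0.69), *Prf1* was at 1.04 (-0.22 to 2.15) and *Ctsw* at 2.05 (1.10 to 2.97), while *Gzmb*, a serine protease of killer cells, had 7 UMIs and was found after thinning in 5.97% of pDCs and 58.0% of NK cells. Of 19 dissociation and stress genes, 10 were lower in pDCs and 0 higher (-1.10).

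Markers of other cell types were counted in the pDCs. The neutrophil list of 8 genes had 0 UMIs in control and 3 in creatine. The melanoma list of 8 genes was at 59.7 and 17.2 CPM, below the 178 and 27.9 CPM of the cDCs of the same libraries, with *Dct* at 13 and 1 UMIs and *Tyr* and *Sox10* at 0. The macrophage list of 12 genes was at 686 and 586 CPM, with 10 and 11 genes found and *Cd68* the most abundant (93 and 59 UMIs), and at 1100 and 5704 CPM in the cDCs. The monocyte list was at 6402 and 6249 CPM, against 1323 and 3590 CPM in cDCs, and *Plac8* made up 1206 and 815 of its UMIs, while *Vcan*, *Fn1* and *Chil3* were at 0. Macrophage and monocyte genes thus differed between the cDCs of the libraries, and their part in the values of the cDCs was not tested. The monocyte list includes *Plac8* and *Ly6c2*, which pDCs are known to express. The T cell list of 12 genes was at 328 and 276 CPM, against 78.8 and 62.3 CPM in cDCs and 1374 and 1440 CPM in NK cells, and was led by *Cd8b1* in control and *Cd8a* in creatine. The NK cell list of 8 genes was at 126 and 215 CPM, against 56.6 and 31.5 CPM in cDCs and 9511 and 12317 CPM in NK cells. Both lists were thus higher in pDCs than in cDCs, and their part in the contrasts with cDCs was not tested beyond the cells named next. The UMIs of the NK cell list were concentrated in 1 control cell with 29 and 1 creatine cell with 45, and these 2 cells held 33 of the 38 *Gzma* UMIs of all pDCs. Apart from the cytotoxic genes above, none of the list medians and gene ratios recomputed without these cells moved by more than the counting interval or changed side of 2-fold.

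pDCs fell into cells with and without *Ly6d* and *Cox6a2*, a division chosen after the values were seen and given as a description. The 2 genes summed were at 0 in 18 cells, at 1 in 2 cells and at 3 or more in 49, with a median of 25 UMIs where any was found. Cells without them were 8 of 42 in control (interval of the share 8.60% to 34.1%) and 10 of 27 in creatine (19.4% to 57.6%), and these intervals overlapped. They lay near the *Siglech* minimum of the gate, with 10 of the 18 at 5 or fewer *Siglech* UMIs, and the lowest of the 51 other cells held 8. The 18 cells were also mixed in quality. They included all 4 pDCs under 3000 UMIs, whose median mitochondrial share was 18.9%, and both cells rich in NK genes. Of 2567 genes that reached 75.3 CPM in either kind, 312 (12.2%) were at least 2-fold higher in the 18 cells and 166 (6.47%) at least 2-fold lower. Since NK genes entered these values (*Gzma* and *Ccl5* were among the genes highest in the 18 cells, and with the cells rich in NK genes and the small cells left out *Ccl5* was level, at -0.05), the levels below are for the remaining 12 cells, 5 from control and 7 from creatine.

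Several pDC transcription factors were at like levels in these 12 cells. *Tcf4* was at 2310 CPM in them and 2167 in the 51 cells with *Ly6d* or *Cox6a2* (log2 ratio 0.09, -0.11 to 0.29), and was found in all 12 with 10 to 32 UMIs. *Irf8* (-0.09, -0.25 to 0.08), *Runx2* (-0.13, -0.59 to 0.31) and *Bcl11a* (0.23, -0.11 to 0.55) had intervals that held 0, as did the surface antigen *Bst2* (-0.12, -0.29 to 0.04). Of the other pDC factors, *Mef2c* was lower (-0.50, -0.98 to -0.05) and *Zeb2* higher (0.68, 0.25 to 1.09), and *Cbfa2t3*, a corepressor, was at 555 against 135 CPM (2.04, with an interval clear of 0). *Spib* was lower, at 79.3 against 299 CPM (-1.92, -3.08 to -0.94), and *Pacsin1* at 123 against 329 CPM (-1.42, -2.33 to -0.62). *Siglech*, which chose the cells, was at 626 against 3105 CPM, with a median of 4.5 UMIs in the 12 cells and 24 in the 51. Other genes were high in the 12 cells. *Klf4*, a factor of monocytes and of a part of the cDC2s, had 69 UMIs in them against 8 (log2 ratio of CPM 4.93, 3.87 to 6.20), above the level in cDCs (110 CPM). It was found in 10 of 12 cells and in 3 of 51. The galectin *Lgals3* was at 1278 against 105 CPM (3.61, 3.10 to 4.14), vimentin *Vim* at 2081 against 264 (2.98, 2.64 to 3.32), and the chemokine receptor *Ccr2* at 758 against 125 (2.60, 2.08 to 3.14). *S100a4* (3.20), *Ifitm2* (4.82), *Apod* (3.54), *Cx3cr1* (4.52) and *Zbtb46* (3.63) were higher by similar amounts, from 39, 32, 33, 13 and 7 UMIs. *Ckb* was at 150 against 12.5 CPM (3.59, 2.09 to 5.38), from 17 and 5 UMIs, and below the 470 CPM of cDCs. It was found in 8 of 12 cells and in 4 of 51. Of 12 genes listed as marks of transitional DCs, cells between pDCs and cDC2s, 6 passed the filter and 5 were at least 2-fold higher in the 18 cells, *Klf4* and *Cx3cr1* among them. These 18 include the cells rich in NK genes and the small cells. *Klf4* and *Cx3cr1* passed through the 18 cells alone, at 20.0 and 4.99 CPM in the 51 cells, so the filter fixed their calls. *Lyz2* and *Itgax* also passed through the 18 cells alone (57.4 and 64.8 CPM in the 51), so this count is a description. MHC class II genes were split. *H2-DMa* (1.17, 0.80 to 1.55), *H2-DMb1* (1.14, 0.55 to 1.71) and *Ctss* (0.67, 0.36 to 0.98), for peptide loading and cleavage of the invariant chain, were higher in the 12 cells. *H2-Aa* was at 52.9 against 753 CPM (-3.83, -5.29 to -2.69) and *Cd74* at 414 against 2113 (-2.35, -2.81 to -1.93), so for these 2 genes the 12 cells were farther from the 6766 and 13531 CPM of cDCs than the other pDCs. *Cd200* had 0 UMIs in them, a log2 ratio of -3.54 as a bound, against 123 UMIs in 38 of the 51. *Klk1b27*, a kallikrein close in sequence to *Klk1*, *Iglc3*, *Ldhb* and *Sh3bgr* were each found in 1 of the 12 cells. *Atp2a1* was found in 6 of 12 cells and 41 of 51, at 132 and 212 CPM (-0.68, -1.58 to 0.12).

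**Figure D4:**
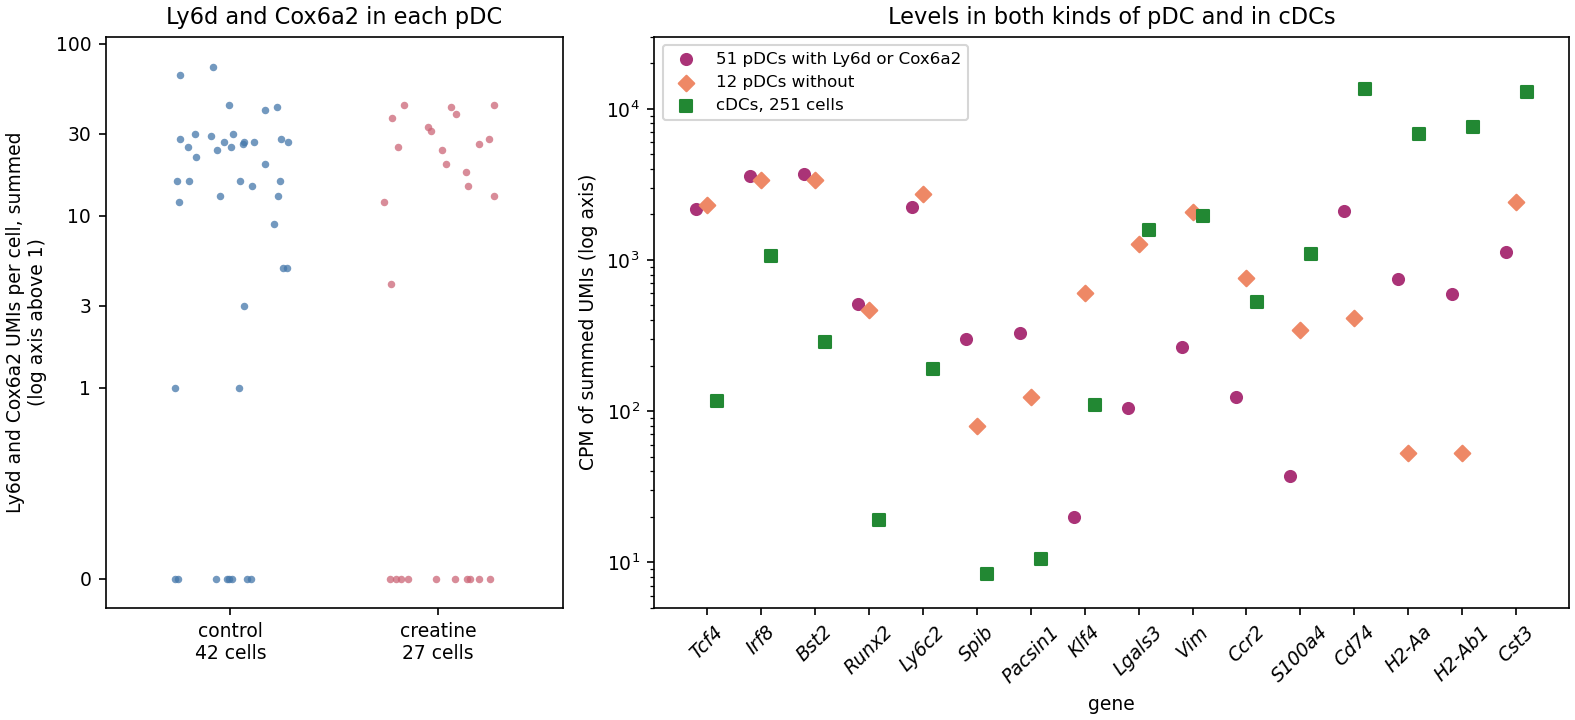
Left, *Ly6d* and *Cox6a2* UMIs summed in each pDC (y axis, logarithmic above 1), by library. Right, CPM (log axis) of 16 genes in the 51 pDCs with either gene (circles), the 12 pDCs without that had enough UMIs and few NK genes (diamonds) and cDCs (squares), where *Tcf4*, *Irf8* and *Bst2* lay close together in both kinds of pDC, *Klf4* was 4.93 higher in the 12 cells on the log2 scale, and *H2-Aa* stood at 52.9 against 753 CPM.

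Finally, pDCs of the creatine library were set against those of the control library, the comparison of the study's design. Of 1632 genes with at least 50 pDC UMIs, 27 (1.65%) were at least 2-fold higher in creatine and 32 (1.96%) at least 2-fold lower, with a median log2 ratio of 0.01. Genes of pDC identity were nearly level, with 0 of 30 at 2-fold in either direction and a median of -0.10, and so were the 14 pDC transcription factors (0.04) and the 8 MHC class II genes (-0.03). The genes farthest up by counting interval were *S100a4*, *Ahnak*, *Bin2*, *Pmepa1* and *Cd209a*. *S100a4*, a calcium-binding protein of motile cells, had 13 UMIs in control and 41 in creatine, or 43.1 and 177 CPM (2.04, 1.11 to 3.06). In the cells with *Ly6d* or *Cox6a2* alone its ratio was 0.49 (-1.21 to 2.14), and the part of the larger share of cells without them in the creatine library was not tested further. *Ahnak*, a giant scaffold protein, was at 421 and 1090 CPM (1.37, 1.06 to 1.69), and at 0.84 in cDCs and 0.34 in NK cells. *Bin2* was at 53.0 and 168 CPM (1.66), *Pmepa1*, an inhibitor of TGF-β signaling, at 79.6 and 224 CPM (1.49) and the lectin *Cd209a* at 82.9 and 228 CPM (1.46). In cDCs the same ratio was 1.07 for *Bin2* (0.75 to 1.38), 0.53 for *Pmepa1* (-0.08 to 1.14), 0.81 for *Cd209a* (0.65 to 0.96) and 0.59 for *S100a4*. In NK cells it was 0.30, 0.03, -0.32 and 0.39. *Cd209a* is a gene of the cDC2 gate, and cDC2s were 76 of 155 control and 62 of 96 creatine cDCs. Its ratio in cDCs was thus in part set by the choice of cells. *S100a4* was at 0.33 with a minimum of 2 *Siglech* UMIs, and *Pmepa1* at 0.30 in the cells without *Ly6d* and *Cox6a2*. *Cd209a* was at 0.32 without the *Siglech* term and with at least 3 UMIs of the other pDC genes of the gate.

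Among the genes farthest down were *Ccl4*, *Gm10076*, *Plaur* and *Iglc2*. *Ccl4*, an inflammatory chemokine, had 58 UMIs in control and 2 in creatine (-4.48, -7.56 to -2.56). Its control UMIs came from 9 cells, 1 of which held 35. *Gm10076*, named as a predicted gene, was at 1946 and 556 CPM (-1.81, -2.09 to -1.53). It was lower in the creatine library to a like extent in cDCs (-1.81) and in NK cells (-1.67). *Plaur*, the urokinase receptor, was at 216 and 56.0 CPM (-1.94, -2.93 to -1.07), and *Iglc2* at 162 and 38.8 CPM (-2.07, -3.28 to -1.03) with 15 of its 49 control UMIs in 1 cell. Without the *Siglech* term of the gate, and with at least 3 UMIs of its other pDC genes, the ratio of *Iglc2* turned to 1.83. In the cells without *Ly6d* and *Cox6a2* the ratio of *Ccl4* turned to 0.49, but from 3 *Ccl4* UMIs over both libraries. Of 20 glycolysis genes, 10 had enough UMIs, 3 were at least 2-fold lower in creatine and 0 higher, with a median of -0.72. The 3 were *Tpi1* (-1.76), *Ldha* (-1.32) and *Eno1* (-1.17), and the median of the same 10 genes in cDCs was -0.43. Of the 8 interferon-stimulated genes with enough UMIs, 1 was at least 2-fold higher and 0 lower, with a median of 0.23, and the intervals of 6 held 0. The median was 0.56 in the cells with *Ly6d* or *Cox6a2* and -0.48 in those without. In the latter, these genes had from 5 (*Isg15*) to 74 (*Ifi27l2a*) UMIs over both libraries. *Isg15* was at 56.4 and 147 CPM (1.38, 0.50 to 2.31). In cDCs the median of these 8 genes was 0.73 and *Isg15* was at 1.29. Of the genes induced by interferon-γ, 3 had enough UMIs, with 1 at least 2-fold lower in creatine pDCs and a median of -0.88, against 1.05 in cDCs. *Irf1* was at -0.88 (-1.53 to -0.25), *Iigp1* at -1.06 (-2.06 to -0.15), and the interval of *Ifi47* held 0 (-0.71 to 0.65). In the cells with *Ly6d* or *Cox6a2* alone the median was -0.08, *Iigp1* was at -0.08 (-1.19 to 0.97) and *Irf1* at -1.09 (-2.02 to -0.23).

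**Figure D5:**
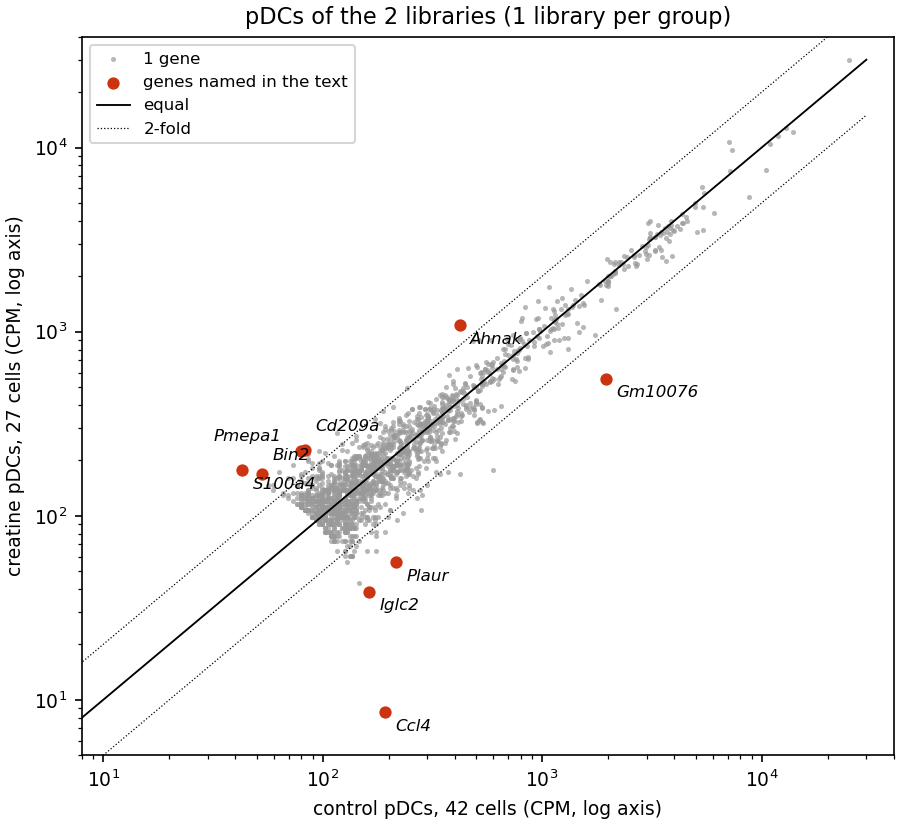
CPM in the 42 control pDCs (x axis) and the 27 creatine pDCs (y axis), both logarithmic, for genes with at least 50 UMIs (grey) and the 9 genes named as farthest apart by counting interval (red), with equality as a solid line and 2-fold as dotted lines. Most genes lay between the dotted lines, and *Ccl4*, at 192 and 8.62 CPM, lay farthest out.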

How the data were processed

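The authors deposited UMI counts per gene and cell for each library, made with Cell Ranger 3.0.2 on mm10 per the labels and methods. Each group was 1 library of pooled tumors, so no test was made. Counts of features with 1 symbol were summed (31053 features, 31017 symbols), cells above 25% mitochondrial UMIs were left out, and populations were gated on raw UMIs. The members, gates and lists were chosen with earlier results of these data known. Intervals are exact (Clopper-Pearson for shares, conditional binomial for ratios) and cover counting error only. Genes named outside the lists were the 12 highest and 8 lowest by interval among those at least 2-fold apart in each library, and for creatine the 5 farthest in each direction. A few items that these rules or lists name are not reported here. Scrublet marked 0.026% of control and 0.154% of creatine cells, so its calls were not used and doublets were kept. Reads of near-identical genes (H2, Klk1, Bcl2a1 and immunoglobulin families) may be split between copies. Alternatives were other gates, thinning, TMM scaling and subsets of cells. Python 3.11.15, NumPy 2.4.6, pandas 2.3.3, SciPy 1.17.1, Scanpy 1.11.5, Matplotlib 3.10.9, R 4.3.3 and edgeR 4.0.16 (TMM factors alone) were used. The ratio intervals were also run on simulated data, with no outcome reported here.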

Additional observations from a re-analysis of the deposited data

Results flagged for a closer look

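*Ccl4* stood apart because creatine and control differed in opposite directions in pDCs and cDCs. Its log2 ratio was -4.48 in pDCs (58 and 2 UMIs) and 3.64 in cDCs (43 and 313 UMIs), and 35 of the 58 UMIs came from 1 control pDC. *Plaur* did the same, with -1.94 in pDCs (17 control and 6 creatine cells with a UMI) and 1.75 in cDCs (36 and 71 UMIs). In NK cells *Plaur* was at -1.16 (-2.12 to -0.20) and *Ccl4* at 0.29 (0.20 to 0.39). The cDCs of the libraries also differed in make-up. Control held 53 cDC1s, 76 cDC2s and 26 *Ccr7*+ DCs, and creatine 26, 62 and 8. The macrophage list was at 1100 CPM in control and 5704 CPM in creatine cDCs, and the monocyte list at 1323 and 3590 CPM. The part of these differences in the cDC ratios of *Ccl4* and *Plaur* was not tested. With 1 library per group, the differences of *Ccl4* and *Plaur* were not tested either.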

How the results depend on the processing

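The gate without the *Siglech* term also asked for at least 3 UMIs of *Ccr9*, *Ly6d*, *Klk1* and *Cox6a2* summed, instead of 1. With these 2 changes together the creatine library gave 60 gated cells (0.963%) and control 52 (0.718%), so the order of the shares turned. The median log2 ratio over cDCs was then 4.06 for pDC identity, 1.27 for pDC transcription factors and -1.42 for MHC class II. *Iglc2* turned to 1.83 in creatine over control. In cells with *Ly6d* or *Cox6a2* alone the cDC factors had a median of -2.46. In cells without them the medians were 3.89 for pDC identity and -4.22 for MHC class II. In creatine over control in the same cells, the interferon-stimulated genes had a median of -0.48 and *Ccl4* turned to 0.49. *Ccl4* had 3 UMIs in these cells over both libraries, and the interferon-stimulated genes had from 5 (*Isg15*) to 74 (*Ifi27l2a*). The pDC factors had a median of 1.55 with TMM scaling, 2.12 with equal weight per cell, 2.07 against cDC2s and 2.43 against *Ccr7*+ DCs. pDC identity was at 5.19 against cDC1s, and MHC class II at -1.62 against *Ccr7*+ DCs. Apart from what the changed gates and populations define, the cause of these moves was not tested. Of the single-gene ratios over cDCs under all settings, 429 stayed within the counting interval, 95 moved and 0 reversed. Of those of creatine over control, 129 stayed, 9 moved and 2 reversed. Of shares of cells with a UMI, 17 stayed and 29 moved. No paired analysis was possible because each group was 1 library. With 42 and 27 cells, a minimum of 50 pDC UMIs was chosen for the comparison of the libraries, and genes under it entered no counts there.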

Other observations

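The cells under 3000 UMIs were 2 of 42 in control and 2 of 27 in creatine, and 2 control pDCs were among the highest 6% of Scrublet scores against 0 in creatine.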
